A study of Mus musculus with 15 samples.

Results

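The 6 genes described here act in acyl-CoA activation and glycine conjugation, and are Keg1, Glyat, Acsm1, Acsm2, Acsm3 and Acsm5. They were taken by symbol from a table of 47069 genes, and all 6 were found once each. Their transcript levels in the 15 libraries were known when the genes were chosen, so these levels are given as a description and without a test. All mice were male C57BL/6 animals aged 2 months, with no treatment or engineered allele in the labels. Of the libraries, 12 were from single proximal tubules microdissected and labelled PTS2, in 3 sets of 4 numbered tubules each (m1, m2, m3), and 3 were from whole kidney. The labels do not say what m or the tubule numbers stand for, nor whether the whole kidneys came from separate mice. Where they did not, p-values measure only the spread between these samples. Levels are TPM, transcript abundances scaled to transcript length and to a common total, so levels of different genes can be compared.

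Medium-chain acyl-CoA synthetases of the ACSM family are mitochondrial enzymes that join medium-chain fatty acids, or aromatic acids such as benzoate, to coenzyme A. Glycine N-acyltransferase, the product of Glyat, then moves the acyl group from coenzyme A to glycine, which turns benzoate into hippurate and frees the coenzyme A. Keg1 (kidney expressed gene 1) belongs to the same acyltransferase family as Glyat. Liver and kidney are the organs best known for this pathway, and in the kidney it lies in the proximal tubule.

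The 6 genes lie in 2 clusters of the mouse genome, all on the plus strand (GENCODE M21 on GRCm38). Acsm5, Acsm2, Acsm1 and Acsm3 lie in this order on chromosome 7, within 268.1 kb. Acsm5 (ENSMUSG00000030972) spans 119519463 to 119545551, Acsm2 (ENSMUSG00000030945) 119554340 to 119600690, Acsm1 (ENSMUSG00000033533) 119607026 to 119662515 and Acsm3 (ENSMUSG00000030935) 119760923 to 119787513. Glyat (ENSMUSG00000063683) at 12633308 to 12653911 and Keg1 (ENSMUSG00000024694) at 12695786 to 12719902 lie on chromosome 19, within 86.6 kb. The coding sequences of Keg1 and Glyat were 73.1% identical over their aligned bases, and those of the 4 Acsm genes between 62.3% and 65.2%. Runs of 50 bases that also occur in another gene's transcripts, on either strand, were not found for Glyat or Acsm1, and made up 0.576% for Acsm2, 1.58% for Acsm5 and 6.07% for Keg1. For Acsm3 they made up 34.0%, all shared with Eri2, a gene on the opposite strand that overlaps it. Whether the counting used the strand is not given in the sources used here, but Eri2 was listed at 12.1 TPM in PTS2 against 2250 TPM for Acsm3. No member shared a run of 50 bases with another member.

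The 250 bases before the RefSeq start of 4 of these genes (GRCm38.p6) are shown. The genes are the neighbouring acyltransferases, and 2 synthetases whose ratio was lowest in tubule 1 and highest in tubule 4 of every set. Capitals mark matches to the motifs searched on both strands, which were CAAAGTCCA (HNF4 type), TTCNNNGAA (STAT type), TATAAA (a core promoter box), the nuclear receptor direct repeat with a spacer of 1 base, and the palindromic HNF1 motif.
Keg1, chr19:12695540-12695789, plus strand: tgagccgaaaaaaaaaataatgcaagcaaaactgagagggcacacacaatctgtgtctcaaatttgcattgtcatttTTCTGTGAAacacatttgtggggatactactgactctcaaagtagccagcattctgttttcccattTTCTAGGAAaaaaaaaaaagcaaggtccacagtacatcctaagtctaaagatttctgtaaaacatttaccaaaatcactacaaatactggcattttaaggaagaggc
Glyat, chr19:12633058-12633307, plus strand: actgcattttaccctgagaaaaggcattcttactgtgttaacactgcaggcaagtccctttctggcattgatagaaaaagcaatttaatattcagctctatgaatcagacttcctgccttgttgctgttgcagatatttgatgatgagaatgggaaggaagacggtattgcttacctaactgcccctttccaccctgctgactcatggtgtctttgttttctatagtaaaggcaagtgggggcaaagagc
Acsm2, chr7:119554090-119554339, plus strand: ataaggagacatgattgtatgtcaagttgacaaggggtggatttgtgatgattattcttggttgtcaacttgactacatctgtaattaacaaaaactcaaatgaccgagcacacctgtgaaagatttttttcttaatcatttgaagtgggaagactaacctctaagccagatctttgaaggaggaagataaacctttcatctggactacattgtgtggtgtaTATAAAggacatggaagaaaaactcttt
Acsm3, chr7:119760673-119760922, plus strand: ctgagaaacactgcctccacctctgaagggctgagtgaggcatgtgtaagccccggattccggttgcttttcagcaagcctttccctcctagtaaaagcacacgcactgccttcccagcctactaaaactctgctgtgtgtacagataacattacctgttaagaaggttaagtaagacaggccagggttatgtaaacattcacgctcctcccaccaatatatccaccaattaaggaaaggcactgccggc
The Keg1 window held the STAT-type motif at 2 places, from -173 to -165 and from -107 to -99 before the start, where 7.02% of 32851 mouse promoter windows of this length held at least 1. The first Acsm2 window held TATAAA from -28 to -23, a motif found in 12.4% of windows. None of the 7 windows of the 6 genes (Acsm2 has 2 starts) held the HNF4-type motif, the direct repeat or the HNF1 motif, which were in 0.384%, 0.0335% and 0.00913% of windows. A match is a description of these letters only.

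The proximal tubule is divided along its length into segments S1, S2 and S3. In these samples, 5 markers of all proximal segments summed to 2913 to 5667 TPM in PTS2 and 5034 to 5271 TPM in whole kidney. The S1 markers summed to at most 79.9 TPM in PTS2 and at least 818 TPM in whole kidney, and the defining S1 gene Slc5a2 was at most 1.38 TPM in PTS2. The sum of the 2 S2 markers overlapped between the groups (368 to 1149 and 719 to 781 TPM). Slc22a6 alone overlapped too, at 339 to 988 TPM in PTS2 and 435 to 512 TPM in whole kidney. Slc22a8 was lower in every tubule, at 24.7 to 161 TPM against 261 to 284 TPM. The sum of the 2 S3 markers was higher in every tubule, at 1463 to 2907 TPM against 856 to 1124 TPM. In sum, the tubules labelled PTS2 thus carried S3 markers above the kidney level. Of these markers, Slc7a13 was at 1366.6 to 2140.5 TPM in PTS2, against a kidney mean of 773 TPM. Cyp7b1 ran from 96.8 to 784 TPM in PTS2, on both sides of its kidney mean of 217 TPM. Markers of 5 non-proximal nephron, glomerular and stromal classes (distal convoluted tubule, principal cell, intercalated cell, podocyte and fibroblast) summed to at most 15.1 TPM in any tubule. The endothelial sum was 20.1 to 81.6 TPM in PTS2 and 251 to 261 TPM in whole kidney. The macrophage sum was 22.5 to 75.9 TPM and 67.6 to 87.0 TPM. Of the macrophage markers, only Csf1r had a higher mean in PTS2, at 39.1 TPM against 21.1 TPM. The means of C1qa and C1qb were 1.69 and 3.93 TPM in PTS2, and 17.0 and 37.4 TPM in whole kidney. Replicate 3 of m3 held 1441 TPM of thick ascending limb markers, where the next tubule had 55.8 TPM and whole kidney at least 2425 TPM. The PTS2 means of the 6 genes with and without this library were 6886 and 6883 TPM for Keg1, 621 and 623 TPM for Glyat, 375 and 380 TPM for Acsm1, 4234 and 4244 TPM for Acsm2, 2250 and 2253 TPM for Acsm3, and 82.4 and 81.9 TPM for Acsm5.

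The 6 genes spanned a wide range of levels in a fixed order. In PTS2 and in whole kidney alike the order of mean TPM was Keg1, Acsm2, Acsm3, Glyat, Acsm1 and Acsm5. Between neighbours in this order, the ranges over the 12 tubules overlapped for Keg1 and Acsm2 only. Keg1 ranked 10 of all genes by mean TPM in both tissues, Acsm2 ranked 20 in PTS2 and 27 in whole kidney, and Acsm5 ranked 1806 and 2891. Summed, the 6 genes held 1.44% of TPM in PTS2 (12533 to 17856 TPM) and 1.08% in whole kidney (10099 to 11277 TPM).

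Among the acyltransferases, Keg1 was the more abundant by about 1 order of magnitude. Its level in PTS2 had a lowest value of 5773 TPM, a median of 6974 TPM and a highest value of 8028 TPM, and the whole kidneys were at 5728, 5731 and 5224 TPM. All 12 tubules were above all 3 kidneys, by a small margin at the lowest tubule. On the log2(TPM + 1) scale the PTS2 mean was higher by 0.30 ± 0.09 (SE, limma, not tested). Glyat in PTS2 ran from 499 through a median of 614 to 765 TPM, and the kidneys were at 591, 605 and 578 TPM. The tubules lay on both sides of the kidneys, with 6 of 12 above every kidney, and the log2 difference was 0.06 ± 0.11 (SE). Its sign turned under 2 of the alternatives tried, at -0.08 with quantile normalization and -0.01 with the replicate number as a block. That block matches kidneys 1 to 3 with tubules of the same number, a tie the labels do not give. No kidney is numbered 4, so tubule 4, where Glyat was highest in every set, has no match there. Within a library, Keg1 TPM was 8.69 to 13.5 times Glyat TPM in PTS2 and 9.04 to 9.69 times in whole kidney.

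Of the synthetases, Acsm2 had the highest level and Acsm3 the largest difference between tissues. Acsm2 in PTS2 ran from 3376 through a median of 4163 to 6155 TPM, with kidneys at 3291, 3462 and 3077 TPM. Of the tubules, 11 of 12 were above every kidney, the exception being replicate 2 of m1, and the log2 difference was 0.35 ± 0.13 (SE). Acsm3, known earlier as the SA gene from rat models of hypertension, ran from 1510 through a median of 2260 to 2891 TPM in PTS2. The kidneys were at 1187, 1222 and 953 TPM, so the groups did not overlap, and the ratio of the means was 2.01 (log2 difference 0.99 ± 0.17, SE). Acsm1, a synthetase also described as acting on butyrate, ran from 297 through 354 to 490 TPM in PTS2 and was at 227, 198 and 220 TPM in the kidneys. Every tubule was above every kidney, with a log2 difference of 0.78 ± 0.13 (SE). Acsm5 was the lowest of the family members with a signal, with 61.4, 83.7 and 101 TPM as lowest, median and highest values in PTS2. The kidneys were at 45.7, 58.8 and 47.2 TPM, again without overlap, and the log2 difference was 0.69 ± 0.12 (SE).

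**Figure D1:**
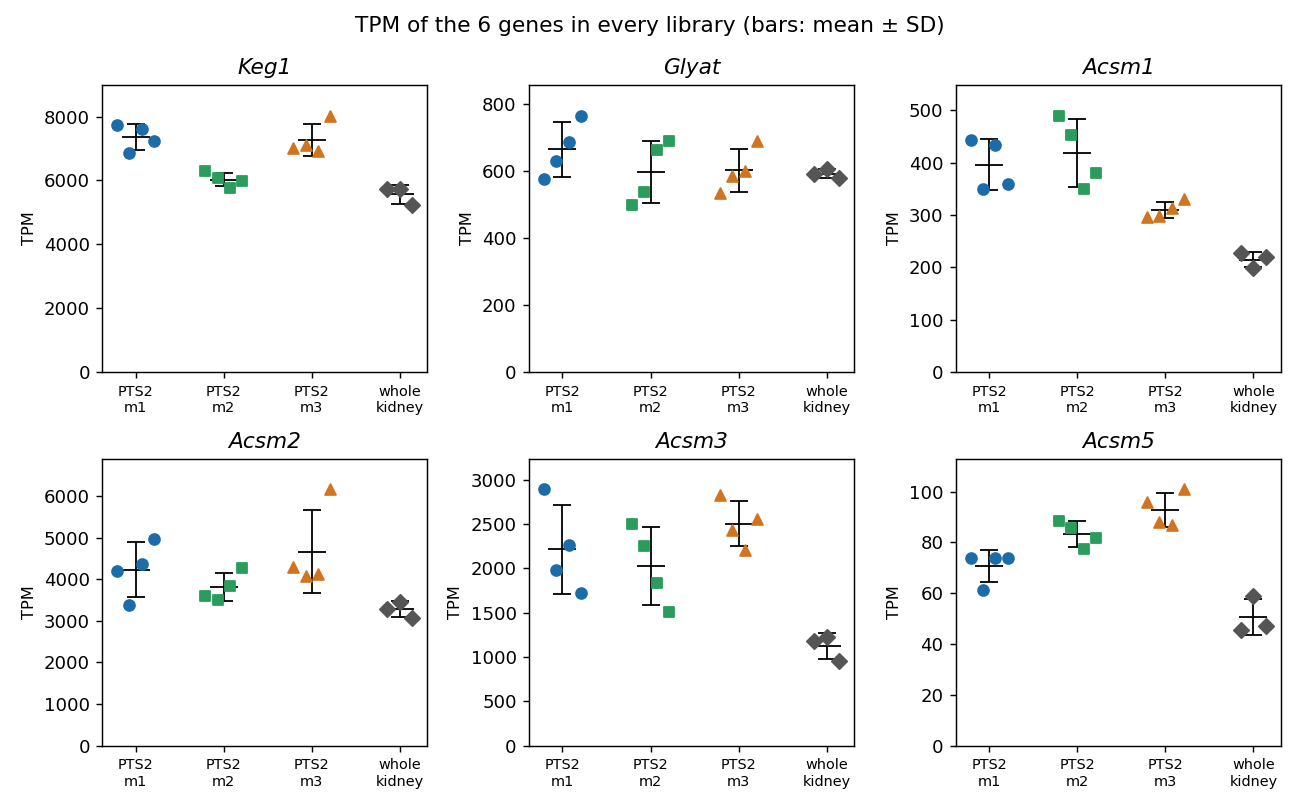
TPM (y axis, from 0) of each of the 6 genes in every library, grouped by PTS2 set and whole kidney; points are libraries and bars the mean ± SD (n = 4 per set, n = 3 kidneys). For Keg1, Acsm1, Acsm3 and Acsm5 all 12 tubules lie above the kidneys, for Acsm2 11 do, and for Glyat the groups overlap.

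Libraries of 4 of the 6 genes lay higher in PTS2 without any overlap, where 5.76% of the 12039 genes tested were. At a limma adjusted p under 0.05, 5 of the 6 were higher and 0 lower, where 9.68% of all genes tested were higher and 41.5% lower (51.2% in either direction). These counts are the contrast that was known when the genes were chosen, so nothing is read from them. The count higher was 6 with median-of-ratios rescaling, 3 with quantile normalization and 3 without replicate 3 of whole kidney. The median log2 difference was 0.52 over the 6 genes and -0.27 over all genes tested. That median moved to 0.00 with median-of-ratios rescaling and to 0.16 with quantile normalization, and the share of calls that were higher moved from 18.9% to 49.7% and 64.7%. Differences from whole kidney are therefore relative to the scaling. Relative to the median of all genes they ranged from 0.33 for Glyat to 1.26 for Acsm3. In whole kidney, fewer proximal tubule cells and less RNA of a gene per cell cannot be told apart.

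The neighbours of both clusters on the chromosome had other levels. Acsm4, the remaining family gene, lies between Acsm1 and Acsm3 and was listed at 0 in every kidney and at no more than 0.01 TPM in any tubule. Thumpd1, which lies between Acsm4 and Acsm3 on the opposite strand, had means of 22.0 ± 4.27 TPM over the 12 tubules and 27.2 ± 0.452 TPM over the 3 kidneys (SD). Umod, the uromodulin gene of the thick ascending limb, lies before Acsm5 on the opposite strand. Its median was 9.12 TPM in PTS2 and its kidney mean 1981 ± 144 TPM, with 1232 TPM in replicate 3 of m3. On chromosome 19, the olfactory receptor genes Olfr1442 and Olfr1443 between Glyat and Keg1 were at no more than 0.66 TPM in any tubule. Gm4952, just before Glyat, was placed in the list of other acyltransferases and is taken up there.

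**Figure D2:**
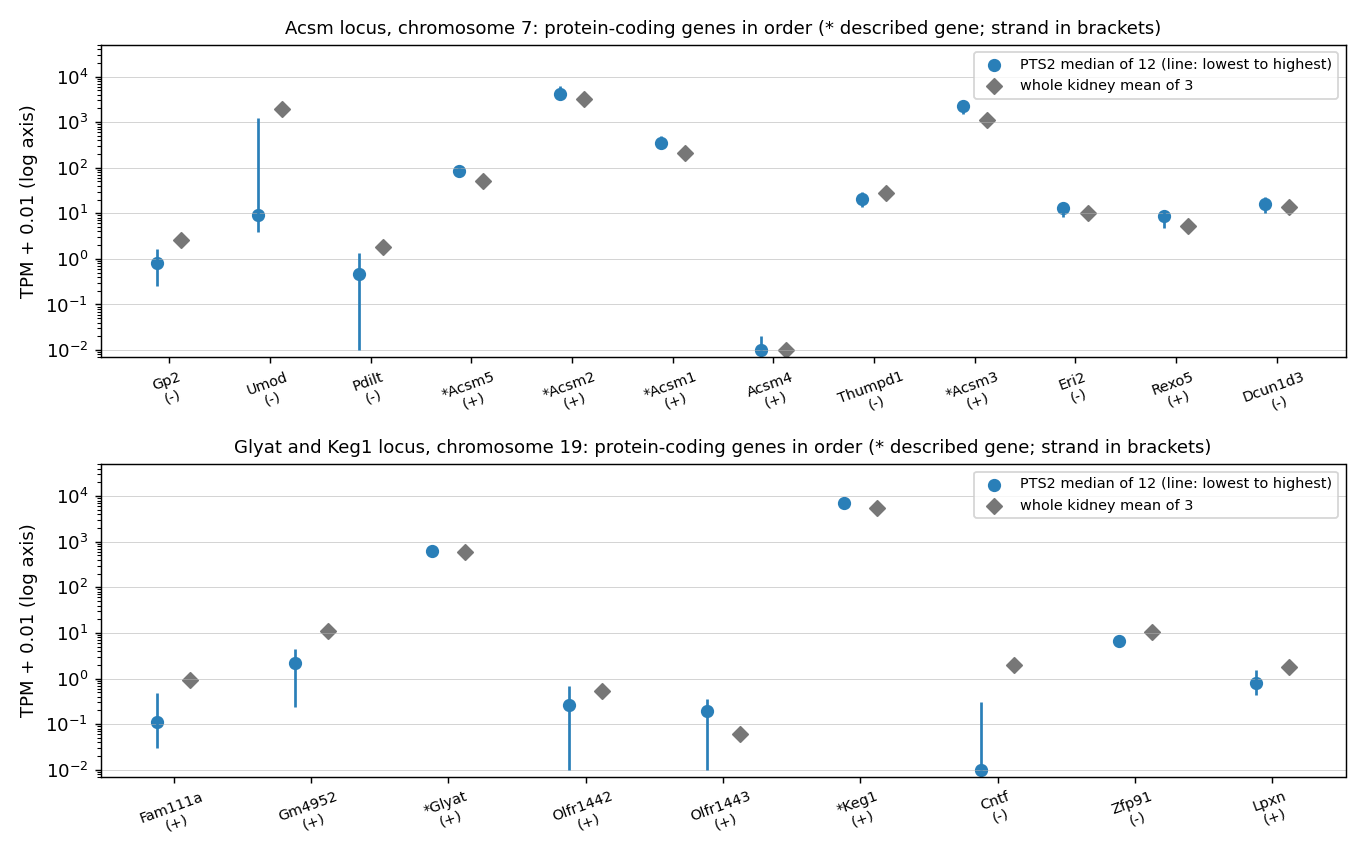
TPM on a log axis, with a small constant added so that 0 can be drawn, of the protein-coding genes within 100 kb of each cluster, in chromosome order and not to distance; circles are the PTS2 median with a line from lowest to highest of 12 tubules, and diamonds the mean of 3 kidneys. Each described gene stands above its neighbours in PTS2, except that Acsm4 is at or near 0 and that Umod is high in whole kidney and in 1 tubule.

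The means of the PTS2 sets differed by at most 1.35 times in the 6 genes. Mean Keg1 TPM was 7360 ± 400 for m1, 6028 ± 215 for m2 and 7269 ± 512 for m3 (SD over 4 tubules). Every m2 tubule was below every tubule of m1 and m3, by log2 differences of -0.29 ± 0.07 from m1 and 0.27 ± 0.07 for m3 minus m2 (SE). Acsm1 was lowest in m3, at 310 ± 15.5 TPM against 396 ± 49.2 TPM in m1 and 418 ± 64.5 TPM in m2, and its m3 tubules overlapped neither of the other sets. Mean Acsm5 TPM was 70.9 ± 6.30 for m1, 83.3 ± 4.96 for m2 and 92.9 ± 6.62 for m3. Its m1 tubules, all at or below 74.03 TPM, lay below those of m2 and m3, which overlapped each other. Libraries without overlap were found for 5.30% of 11300 genes between m1 and m2, 9.04% between m1 and m3 and 9.60% between m2 and m3.

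Glyat, Acsm2 and Acsm3 overlapped between every pair of sets. Their highest set mean was 1.11, 1.23 and 1.24 times the lowest, and this ratio was at most 1.35, for Acsm1, among the 6 genes. In the limma F test among sets, 0 of the 6 genes had an adjusted p under 0.05, where 3.02% of all genes tested did. Between 0 and 2 of them did in the alternative fits, with 2 under median-of-ratios rescaling and 2 with the replicate number as a block. As with the kidney contrast, nothing is read from these counts.

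Within each set, tubules with different numbers differed in the balance of Acsm2 and Acsm3. The ratio of Acsm2 TPM to Acsm3 TPM in tubules 1, 2, 3 and 4 was 1.45, 1.71, 1.93 and 2.88 in m1. In m2 it was 1.44, 1.56, 2.08 and 2.83, and in m3 it was 1.52, 1.67, 1.86 and 2.41. It was lowest in tubule 1 and highest in tubule 4 of every set, and whole kidney was at 2.77 to 3.23. The ratio of Acsm2 to Acsm1 lacked this order in m3, and that of Acsm2 to Acsm5 lacked it in m1. Other ratios also moved with the number. Acsm3 to Glyat was highest in tubule 1 of every set, at 5.03, 5.02 and 5.28 in m1, m2 and m3. It was 2.26, 2.19 and 3.71 in tubule 4, though in m3 tubule 3 was the lowest. Keg1 to Glyat was highest in tubule 1 of every set too, while Acsm2 to Glyat was highest in tubule 4 of m3. How many gene pairs are ordered by the number was not tested. Glyat was also lowest in tubule 1 and highest in tubule 4 of every set. It was at 574 and 765 TPM in m1, 499 and 688 TPM in m2, and 535 and 689 TPM in m3, and 0.478% of 11300 genes had this order. Acsm3 was lower in tubule 4 than in tubule 1 of every set (2891 and 1726 TPM, 2506 and 1510 TPM, 2825 and 2553 TPM), as were 25.1% of genes. Acsm2 was higher in tubule 4 than in tubule 1 of every set (4204 and 4968 TPM, 3608 and 4279 TPM, 4302 and 6155 TPM), as were 12.3% of genes. Keg1, Acsm1 and Acsm5 differed in opposite directions in different sets. The summed S2 markers moved with the number, at 704 and 1149 TPM in tubules 1 and 4 of m1, 368 and 892 TPM in m2, and 370 and 1024 TPM in m3. The S3 sums went the other way, at 2447 and 1463 TPM, 2907 and 2002 TPM, and 2807 and 2096 TPM. The part of these markers in the ratio was not tested, and the labels do not say what the numbers mean.

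**Figure D3:**
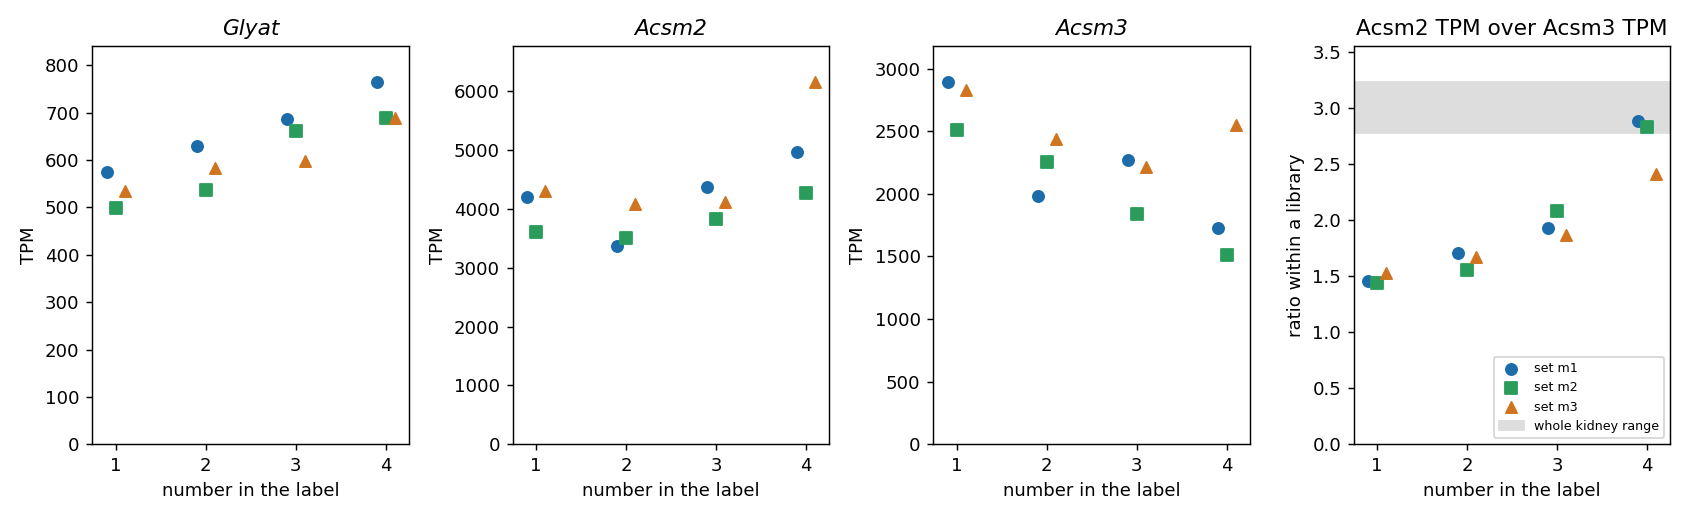
TPM of Glyat, Acsm2 and Acsm3 and the ratio of Acsm2 to Acsm3 within a library (y axes from 0), against the tubule's number in the label, with a symbol for each set; the grey band in the panel of the ratio is the range of 3 kidneys. The ratio is 1.44 to 1.52 in tubules numbered 1 and 2.41 to 2.88 in those numbered 4.

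Across the 12 tubules the 6 genes did not move as 1 group. The Pearson r of log2(TPM + 1) was highest for Keg1 and Acsm2, at 0.63 (Spearman rho 0.66), and lowest for Glyat and Acsm3, at -0.65 (rho -0.57). Without replicate 4 of m3, which had the highest Keg1 and Acsm2 levels, these were 0.48 and -0.76, and the highest pair was then Glyat and Acsm2, at 0.57. Keg1 and Glyat had an r of 0.22, and Acsm2 and Acsm3 one of 0.08. The tubules share a set and a number in groups, so they are not independent points and these values are descriptive.

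Other genes followed single members more closely over the same 12 libraries. Among 6440 genes whose mean reached 10 TPM, those with the highest r to Keg1 were Fam136a (0.943), a mitochondrial protein gene, and Sh3tc1 (0.939). For Glyat it was Ldhb (0.966), a lactate dehydrogenase subunit, which ran from 1285 to 2035 TPM in the tubules with a mean of 2087 ± 56.1 TPM (SD) over the 3 kidneys. Acsm2 was followed by Gas2 (0.974) and by Cfb (0.953), the gene of complement factor B, with 0.939 and 0.889 without replicate 4 of m3. For Acsm3 they were Phtf1 (0.961) and Sec14l3 (0.903), for Acsm5 Ppt2 (0.970) and Tinf2 (0.967), and for Acsm1 Klhdc2 (0.925) and Osgepl1 (0.908). These are the highest of many values over few libraries, and are given as a description.

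The pathway around the 6 genes was covered by 9 lists with 82 other genes. The lists were chosen with earlier results of these data known, so their counts are descriptive. Their genes were compared between PTS2 and whole kidney. Of 69 that passed the filter on low values, 22 were higher and 19 lower in PTS2 at a limma adjusted p under 0.05, where 9.68% of all genes tested were higher and 41.5% lower. These shares are the background for the count of every list that follows, and no list was tested against them. Their median log2 difference was 0.12, against -0.27 over all genes. Without replicate 3 of m3, 22 were higher and 18 lower. With median-of-ratios rescaling 39 were higher and 14 lower, and with quantile normalization 32 and 12.

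The other amino acid N-acyltransferases did not share the level of Keg1 or Glyat, apart from Nat8. Of 4 tested, 1 was higher and 2 were lower, with a median of -1.06. Nat8, which acetylates cysteine conjugates, had 800.5 ± 98.5 TPM in the 12 tubules and 449 ± 78.5 TPM in the 3 kidneys (SD), a log2 difference of 0.84 ± 0.12 (SE, adjusted p = 2.19e-05, limma). Gm4952, the neighbour of Glyat, was at 2.33 ± 1.31 and 10.8 ± 5.54 TPM (log2 difference -1.82 ± 0.38, SE, adjusted p = 0.000731, limma). Acnat2, a peroxisomal acyltransferase, was at 48.8 ± 33.0 TPM in the tubules and 124 ± 6.24 TPM in the kidneys (adjusted p = 0.0134, limma). Its partner Acnat1 was at 4.69 ± 2.87 and 6.56 ± 2.67 TPM (adjusted p = 0.266, limma). Glyatl3 was listed at 0 in all libraries, and Baat, the bile acid conjugating enzyme, had a mean of 0.318 TPM in the tubules and 0.910 TPM in the kidneys. These 2 were below the filter.

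The enzymes that activate shorter acids differed from gene to gene. Of 5 tested beside the Acsm genes, 1 was higher and 2 were lower, with a median of 0.20. The balance turned with median-of-ratios rescaling, to 3 higher and 2 lower, and was 2 and 2 with quantile normalization. Acss2, the cytosolic acetyl-CoA synthetase, was at 512 ± 109 TPM in the tubules and 274 ± 33.9 TPM in the kidneys (log2 difference 0.88 ± 0.18, SE, adjusted p = 0.000614, limma). Acss1, its mitochondrial counterpart, had a median of 0.635 TPM in the tubules and a kidney mean of 219 ± 23.8 TPM, a log2 difference of -6.78 ± 0.50 (adjusted p = 8.29e-09, limma). Its highest tubule, at 12.5 TPM, was far below the lowest kidney, at 199 TPM. Acss3, for propionate, was at 0.126 ± 0.128 TPM and 7.96 ± 0.464 TPM (log2 difference -3.00, adjusted p = 6.94e-12, limma). Acsf3, a malonyl-CoA synthetase, was at 32.4 ± 2.72 and 28.0 ± 1.40 TPM (adjusted p = 0.0556, limma), and Aacs, the acetoacetyl-CoA synthetase, at 380 ± 136 and 236 ± 60.3 TPM (adjusted p = 0.0621, limma). Acsf3 was called higher under both rescalings (adjusted p = 2.59e-05 and 9.64e-06, limma), and Aacs with median-of-ratios rescaling (adjusted p = 0.00619, limma). Acsm4 and Acsf2 were below the filter.

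Of 13 long-chain synthetase genes listed, 7 were tested, of which 1 was higher and 5 were lower, with a median of -0.50. Under either rescaling 1 was higher and 3 were lower, so the count depends on the scaling. Slc27a2, a very-long-chain acyl-CoA synthetase and fatty acid transporter, was at 9166 ± 1358 TPM in the tubules and 4620 ± 443 TPM in the kidneys (log2 difference 0.98 ± 0.13, adjusted p = 7.39e-06, limma). Acsl1 was at 31.6 ± 13.7 and 92.8 ± 25.0 TPM (log2 difference -1.63 ± 0.36, adjusted p = 0.00129, limma). Acsl4, which prefers arachidonate, had a log2 difference of -1.55 ± 0.15 (adjusted p = 1.93e-07, limma), and Acsl3 one of -0.96 ± 0.14 (adjusted p = 3.78e-05, limma).

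Of 14 genes tested that make and recycle coenzyme A, 7 were higher and 1 lower, with a median of 0.28, and under either rescaling 9 were higher and 0 lower. Nudt19, a peroxisomal hydrolase of coenzyme A, was at 4027 ± 888 TPM in the tubules and 2009 ± 540 TPM in the kidneys (log2 difference 1.00 ± 0.18, adjusted p = 0.000237, limma). Coasy, the last enzyme of coenzyme A synthesis, was at 467 ± 29.9 and 269.5 ± 8.37 TPM (log2 difference 0.79 ± 0.06, adjusted p = 2.17e-08, limma). Vnn1, a pantetheinase, was at 177.5 ± 45.2 and 91.2 ± 17.2 TPM (adjusted p = 0.00112, limma). Both Nudt19 and Vnn1 also differed among the sets, so their SE and p-values against whole kidney can be too small. The gene that was lower was Pank4, at 13.9 ± 1.58 and 17.9 ± 1.65 TPM (adjusted p = 0.0157, limma), a call lost under both rescalings.

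Acyl-CoA thioesterases, which release the acid from coenzyme A, were higher for 4 of 12 and lower for 2, with a median of 0.17. The counts were 8 higher and 2 lower with median-of-ratios rescaling, and 7 and 0 with quantile normalization. Acot1, a cytosolic long-chain enzyme, was at 168 ± 41.2 TPM in the tubules and 59.7 ± 10.3 TPM in the kidneys (log2 difference 1.45 ± 0.21, adjusted p = 2.31e-05, limma), but it has near-identical relatives that can share reads. Acot12, an acetyl-CoA hydrolase, and Acot4, a peroxisomal thioesterase, had log2 differences of 0.70 and 0.50 (adjusted p = 3.09e-05 and 0.00197, limma). Acot13 was the most abundant, at 546 ± 50.4 TPM in the tubules and 448 ± 43.4 TPM in the kidneys (adjusted p = 0.0152, limma). Acot11 and Acot6 were lower, by log2 differences of -1.14 and -0.83 (adjusted p = 0.00577 and 0.000520, limma). The calls of Acot13, Acot11 and Acot6 were lost with quantile normalization.

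Of the 6 genes that make or cleave N-acyl amino acids, 3 were higher and 0 lower, with a median of 0.46. Acy3, an aminoacylase for aromatic N-acyl amino acids, was at 5539 ± 430 TPM in the tubules and 2912 ± 380 TPM in the kidneys (log2 difference 0.93 ± 0.08, adjusted p = 8.81e-08, limma). Acy1 was at 478 ± 64.0 and 210 ± 7.57 TPM (log2 difference 1.17, adjusted p = 3.92e-07, limma). Pm20d1, a secreted enzyme that joins fatty acids to amino acids, was at 119 ± 16.0 and 52.8 ± 7.07 TPM (log2 difference 1.15, adjusted p = 4.82e-07, limma). The groups did not overlap for any of these 3. Aspa, Faah and Pm20d2 had adjusted limma p-values of 0.849, 0.958 and 0.181. Aspa was called higher with median-of-ratios rescaling (adjusted p = 0.0132, limma) and Pm20d2 with quantile normalization (adjusted p = 0.00244, limma).

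In the 8 genes of medium- and short-chain fatty acid breakdown, 2 were higher and 4 lower, with a median of -0.06. The balance turned with median-of-ratios rescaling, to 4 higher and 2 lower with a median of 0.23, and was 2 and 2 with quantile normalization. Acadm, the medium-chain acyl-CoA dehydrogenase that uses the products of the ACSM enzymes, was at 2361 ± 595 TPM in the tubules and 1076 ± 133 TPM in the kidneys (log2 difference 1.10 ± 0.21, adjusted p = 0.000320, limma). Echs1, the short-chain hydratase, had a log2 difference of 0.21 ± 0.05 (adjusted p = 0.00254, limma). Acaa2, the mitochondrial thiolase, was at 75.5 ± 41.0 and 415 ± 33.4 TPM (log2 difference -2.60 ± 0.37, adjusted p = 1.92e-05, limma). Acadsb and Hadha had log2 differences of -0.70 and -0.31 (adjusted p = 0.00207 and 0.0333, limma). The call of Hadha was lost under both rescalings (adjusted p = 0.883 and 0.183, limma).

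Transporters that carry hippurate or related anions were higher for 3 of 9 and lower for 2, with a median of 0.35. The counts were 6 higher and 2 lower with median-of-ratios rescaling, and 5 and 2 with quantile normalization. Slc22a7 was at 1219 ± 325 TPM in the tubules and 333 ± 73.7 TPM in the kidneys (log2 difference 1.84 ± 0.25, adjusted p = 1.19e-05, limma). The apical phosphate and anion transporters Slc17a1 and Slc17a3 were at 1403 ± 96.2 and 1249 ± 97.7 TPM in PTS2, with log2 differences of 0.50 and 0.79 (adjusted p = 1.37e-05 and 7.12e-07, limma). Slc22a8, a basolateral organic anion transporter, had a log2 difference of -2.21 ± 0.47 (adjusted p = 0.000882, limma), and the efflux pump Abcc4 one of -2.84 ± 0.17 (adjusted p = 3.9e-10, limma). For Abcc4 the highest tubule was at 0.75 TPM and the lowest kidney at 7.18 TPM.

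The glycine cleavage system, the mitochondrial complex that consumes glycine, was lower in 1 of 4 genes. Gldc, its decarboxylase, was at 4.71 ± 4.66 TPM in the tubules and 75.8 ± 12.6 TPM in the kidneys, a log2 difference of -4.16 ± 0.61 (SE, adjusted p = 2.52e-05, limma). Amt, Gcsh and Dld were at 7.38, 239 and 286 TPM in the tubules and 7.04, 239 and 290 TPM in the kidneys, with adjusted limma p-values of 0.773, 0.956 and 0.806. With median-of-ratios rescaling these 3 were called higher, and with quantile normalization Amt was.

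**Figure D4:**
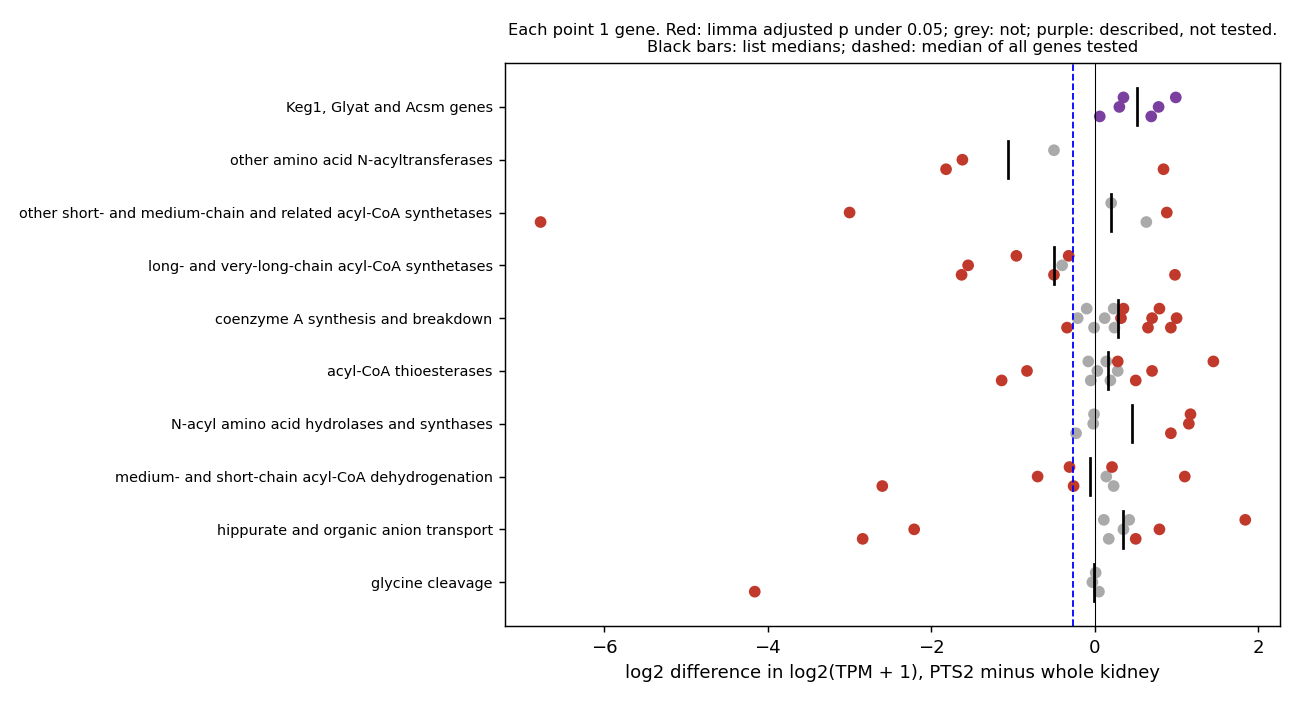
Log2 differences of PTS2 minus whole kidney on the log2(TPM + 1) scale (x axis), with 1 row for the 6 described genes and 1 for each list; points are genes, red where the limma adjusted p is under 0.05, black bars are medians and the dashed line is the median of all genes tested, at -0.27. The row of the 6 genes has its median at 0.52, and Acss1 and Gldc are the lowest points.

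Among the sets, 11 of 67 list genes tested had a limma F test adjusted p under 0.05. Of all genes, 3.02% did. The count over the lists was 21 with the replicate number as a block. The replicates of this test are the 4 tubules of a set, so its p-values measure only the spread between tubules. The labels do not say whether a set is a single mouse, and the lists were chosen with earlier results known. The 5 list genes with the smallest p were Vnn1, Aacs, Acot9, Nudt19 and Acnat1. Mean Nudt19 TPM was 3240 ± 384 for m1, 3690 ± 251 for m2 and 5150 ± 151 for m3 (SD over 4 tubules, adjusted p = 0.00135, limma). Vnn1 was highest in m2, with 177 ± 21.9 TPM for m1, 228 ± 12.5 for m2 and 128 ± 10.2 for m3 (adjusted p = 0.000537, limma), and Aacs was lowest there, at 346 ± 53.0, 249 ± 35.7 and 545 ± 56.2 TPM (adjusted p = 0.000546, limma). Acot9, a mitochondrial thioesterase, was at 80.2 ± 9.39, 97.4 ± 3.02 and 134 ± 2.05 TPM (adjusted p = 0.000557, limma). Acnat1 ran the other way, at 7.77 ± 2.84, 4.17 ± 0.489 and 2.13 ± 0.423 TPM (adjusted p = 0.00436, limma). These 5 calls held in each alternative fit that included the gene, with adjusted limma p-values of at most 0.0225. Acnat1 was not in the fit where the mean had to reach 10 TPM. The count over the lists was 8 without a filter on low values, 10 without replicate 3 of m3 and 15 without replicate 1 of m1.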

How the data were processed

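The labels' protocols describe cDNA made with a low-input full-length kit from RNA of microdissected tubules and whole kidney. The deposited table gives TPM per gene and library, made by the authors. STAR 2.5.1b, RSEM 1.2.31 and the build GRCm38.p5 are listed in the submitters' processing notes, while the annotation release is not given in the sources used here. The columns each sum to between 999999 and 1000001. Sequencing depth is not recoverable from TPM and is unknown, so no counting error is attached. Another 4 columns, holding means and standard errors by the authors, were left aside.

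Groups follow each sample's description. The tests used limma (version 3.58.1, R 4.3.3) with lmFit and a trended eBayes on log2(TPM + 1), which understates changes of low genes, with Benjamini-Hochberg adjustment over all genes whose mean reached 1 TPM. PTS2 against whole kidney (12039 genes) had the set as a correlated block (correlation 0.0669), with each kidney library a block of its own. The same correlation was applied to every gene. For a gene that differs mainly between sets, the SE and p-value against whole kidney can therefore be too small. The 3 sets (11300 genes) were compared with an F test. The 6 genes and all lists were chosen with earlier results of these data known.

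Genes named were the 6 genes, every tested gene of lists with at most 6 tested, otherwise up to 3 called genes per direction with the largest difference and the most abundant one, the 2 genes most like each member (1 of these is not reported here), and up to 5 list genes called among sets. Sequences and starts are from RefSeq on GRCm38.p6, where all 6 genes matched, and positions from GENCODE M21. The TATAAA motif, the comparison of shared runs of bases and the coding identities were added after the data were seen. The protein comparison that had been planned was not made, and no protein sequences were used here. Alternatives were another pseudocount, other filters, 2 rescalings, blocking on the replicate number, leaving out the within-set correlation, and leaving out each library. Tables were made in Python 3.11.15 with pandas 2.3.3.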

Additional observations from a re-analysis of the deposited data

Results flagged for a closer look

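In each PTS2 set of 4 tubules, the most extreme tubule at either end was examined for how far it stood from the next one relative to the spread of all 4, for the 6 genes and the 5 list genes named among sets. Of 33 such groups, 3 stood out, where chance flags about 1 in 20, or 1.65. Replicate 4 of m3 had the highest Keg1 level, at 8028 TPM (8028.44), where the next tubule of its set was at 7100 TPM. It also had the highest Acsm2 level, at 6155 TPM (6155.16), where the next was at 4302 TPM. Replicate 2 of m1 had the lowest Acsm5 level, at 61.4 TPM (61.41), where the next was at 73.95 TPM.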

How the results depend on the processing

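The 6 genes' differences from whole kidney kept their sign in 90 of 90 values with a library left out and changed sign in 2 of 42 values under the other alternatives. Both were Glyat, at -0.08 with quantile normalization and -0.01 with the replicate number as a block. In that block kidneys are matched to tubules by number, a tie the labels do not give. The ranges of the others were 0.11 to 0.59 for Keg1, 0.24 to 0.65 for Acsm2, 0.72 to 1.07 for Acsm1, 0.81 to 1.28 for Acsm3 and 0.62 to 0.98 for Acsm5. The genes called between PTS2 and whole kidney (6161) numbered 9399 without a filter on low values, 3113 where the mean had to reach 10 TPM, 6292 with the replicate number as a block, and 4761 to 6712 with a library left out. The genes called among sets (341) numbered 196 without a filter, 888 with the replicate number as a block, and 197 to 563 with a library left out. They were 563 without replicate 1 of m1, 220 without replicate 2 of m2, and 197, 226 and 209 without replicates 1, 2 and 3 of m3. The cause was not tested. Deviations from the set means had a mean r of 0.143 over 12 pairs of same-numbered tubules (0.0254 to 0.273, 7 of them over 0.1) and of -0.048 over the other 36 pairs, and 9 of 12 tubules correlated best with their own number. This is a hint from the data that the numbers are shared. The labels give no such pairing and not every pair was over 0.1, the level required, so the fit without the block was kept.

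Of the list genes chosen by the naming rule above, Acnat1 (0.23), Pank4 (0.10), Pm20d2 (0.61), Faah (0.19) and Gcsh (-0.02) turned sign with quantile normalization. Aspa (0.27), Faah (0.28) and Dld (0.27) did so with median-of-ratios rescaling. Some list genes outside the rule turned sign too. Acot2 went from -0.05 to 0.74 with quantile normalization, and Hadhb from -0.26 to 0.03 with median-of-ratios rescaling. With a library left out, the log2 difference ran from -0.13 to 0.06 for Aspa, -0.14 to 0.10 for Faah, -0.0034 to 0.10 for Amt, -0.06 to 0.09 for Gcsh and -0.04 to 0.01 for Dld. Of the genes chosen by the rule that turned sign, only Pank4 was called as reported. Among the genes chosen by the rule, the calls of Acot6, Acot11, Acot13 and Hadha were also lost with quantile normalization. That of Hadha was lost with median-of-ratios rescaling and without a filter on low values too. Outside the rule, the list genes Acsl5, Slc27a4 and Hadhb lost their calls under both rescalings. Depth is unknown from TPM, so what it limits cannot be given.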
